A study of Homo sapiens with 12 samples.

Results

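The 10 genes described here encode regulators of the integrated stress response: ATF4, ATF3, ATF5, DDIT3 (the gene of CHOP), TRIB3, CEBPB, CEBPG, CHAC1, PPP1R15A (the gene of GADD34) and FAM129A (now NIBAN1). They are 10 of the 58735 genes of an expression table and were taken by gene symbol, and the group was chosen by values from these data, because ATF3 and FAM129A stood among the leading genes of the libraries labelled KGN. Fold changes of the members in KGN, and differences between the cell lines that contain them, are therefore given as a description without a test. No threshold separated members from other genes.

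RNA was sequenced from 2 cell lines, KGN, derived from an adult-type granulosa cell tumor (GCT), and COV434, described as juvenile-type, each with and without 77-39, an inhibitor of the mitochondrial deacetylase SIRT3. There were 12 libraries in 4 groups of 3: KGN control, KGN with 77-39, COV434 control and COV434 with 77-39, all labelled wild type (WT). The labels give 72 h of treatment at 10 μm/ml, a unit that does not define a concentration. The same treatment text stands on the control entries, so treated and control libraries were told apart by their titles. Nothing in the labels says that the libraries of a group came from separate cultures, so p-values measure only the spread between these libraries, which may be technical. Both are established cell lines, and bulk RNA cannot tell fewer expressing cells from less RNA per cell.

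When amino acids, heme or folding capacity of the endoplasmic reticulum (ER) run short, kinases phosphorylate the translation factor eIF2α. General translation then falls, while the ATF4 message, which carries short upstream reading frames, is translated more. ATF4 protein drives amino acid transport and synthesis genes and, with C/EBP partners, induces DDIT3, ATF3, TRIB3, CHAC1 and PPP1R15A, the last of which closes the loop by bringing a phosphatase back to eIF2α. The level of ATF4 RNA is therefore not a measure of ATF4 protein, which was not measured here.

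The library labels were compared with markers before the members were read. FOXL2, the gene mutated in adult-type GCT, was at 0 to 0.0195 FPKM (fragments per kilobase of gene, scaled to library size) in the 6 libraries labelled KGN and at 11.5 to 14 FPKM in the 6 labelled COV434. WT1 had the reverse pattern, with 45.9 to 61.4 FPKM in KGN and 0 in every COV434 library. SMARCA2 was at 0.00296 to 0.0087 FPKM in KGN against 4.51 to 6.48 FPKM in COV434, and SMARCA4 at 2.25 to 2.6 against 6.51 to 12.6 FPKM. The granulosa genes NR5A1, FSHR, GATA4 and STAR did not exceed 0.0439 FPKM in any library, and AMHR2, INHBA, FST and CYP19A1 did not exceed 0.198 FPKM. Other granulosa genes were present: AMH was at 4.07 to 4.83 FPKM in KGN and 5.45 to 9.14 in COV434, INHA at 0.58 to 1.22 and 2.4 to 5.22, and INHBB at 0 to 0.0886 and 6.32 to 9.17. KGN is known to express FOXL2, and COV434 is known for the loss of both SMARCA proteins, so these values go against the labels, and the names below mean the libraries labelled KGN or COV434. SIRT3 RNA, the target of 77-39, was at 3.46 to 4.35 FPKM in control and 3.36 to 4.95 FPKM in treated libraries. Depth was 15547851 to 18280415 recovered reads per library. In the treated library 1 of COV434, mitochondrially encoded genes took 13.5% of reads, the highest share of any library.

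Promoter sequence is shown for the 4 members whose annotated start site has a motif of this pathway nearby. Windows of 250 bases before to 50 bases after each start site were taken from RefSeq (GRCh38.p14), and all 10 members had at least 1. They were searched on both strands for TGATGNAA, the core of the C/EBP-ATF response element bound by ATF4 with a C/EBP partner, and for TGACNTCA, the cyclic AMP response element and its close variants, which ATF and CREB factors bind. The letters of the motifs can overlap but did not do so in these windows. The first motif was in 3.62% and the second in 7.72% of 35116 windows. Each sequence reads 5′ to 3′ along its gene, with the motif in capitals.
ATF3, chr1:212565157-212565456, plus strand: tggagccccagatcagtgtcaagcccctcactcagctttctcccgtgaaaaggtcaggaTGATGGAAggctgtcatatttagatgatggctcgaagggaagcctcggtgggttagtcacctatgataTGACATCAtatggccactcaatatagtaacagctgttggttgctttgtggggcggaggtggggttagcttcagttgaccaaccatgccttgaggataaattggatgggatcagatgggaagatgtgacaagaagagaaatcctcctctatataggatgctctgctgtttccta
CEBPG, chr19:33373863-33374162, plus strand: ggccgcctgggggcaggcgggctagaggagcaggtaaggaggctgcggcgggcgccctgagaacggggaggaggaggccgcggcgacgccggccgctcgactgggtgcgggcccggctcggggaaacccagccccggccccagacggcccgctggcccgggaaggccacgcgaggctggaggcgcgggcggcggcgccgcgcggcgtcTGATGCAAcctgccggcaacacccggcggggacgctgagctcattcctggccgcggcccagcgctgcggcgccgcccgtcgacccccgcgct
CHAC1, chr15:40953221-40953520, plus strand: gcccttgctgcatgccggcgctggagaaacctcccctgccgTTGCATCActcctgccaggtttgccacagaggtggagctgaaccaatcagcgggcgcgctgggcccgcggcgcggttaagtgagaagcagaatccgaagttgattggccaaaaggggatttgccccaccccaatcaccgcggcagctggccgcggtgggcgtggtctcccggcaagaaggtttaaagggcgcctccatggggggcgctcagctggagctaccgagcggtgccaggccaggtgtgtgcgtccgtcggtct
PPP1R15A, chr19:48872171-48872470, plus strand: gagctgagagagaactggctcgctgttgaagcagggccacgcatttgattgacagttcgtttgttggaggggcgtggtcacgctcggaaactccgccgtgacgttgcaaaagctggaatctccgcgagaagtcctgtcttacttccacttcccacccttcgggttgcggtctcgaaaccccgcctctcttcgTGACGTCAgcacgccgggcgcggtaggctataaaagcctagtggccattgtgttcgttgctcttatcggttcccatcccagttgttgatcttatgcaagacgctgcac

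ATF3 has 2 annotated starts, and the window of the 1st held both motifs. TGATGGAA started 191 bases and TGACATCA 123 bases before that start site. The window of the 2nd ATF3 start held neither, and which start was used in these cells was not tested. The CEBPG window held TGATGCAA 42 bases before the start site, from the 2nd of its 2 annotated starts. The CHAC1 window held TGATGCAA on the opposite strand, 209 bases before the start site, so the printed strand shows its reverse complement. The PPP1R15A window held TGACGTCA 58 bases before the start site. Of the 10 members, 3 had the first motif, 2 the second and 4 either, where 4.46%, 9.21% and 13.1% of 27305 genes did. A match is a description of letters and not of binding. For ATF4, ATF5, DDIT3, TRIB3, CEBPB and FAM129A neither motif was found, which concerns these windows only.

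Across the 12 libraries the members spanned a wide range of levels, and all 10 passed the filter of a mean of 1 FPKM in every comparison. Per length, ATF4 was the highest member in all 12 libraries, at 224 to 396 FPKM. FAM129A was the lowest member in every untreated library, at 0.421 to 1.68 FPKM. The order in between differed: ATF5 came next after ATF4 in untreated KGN, with a mean of 109 FPKM, whereas CEBPB (136 FPKM) and TRIB3 (132 FPKM) came next in untreated COV434, and these 2 overlapped each other.

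**Figure D1:**
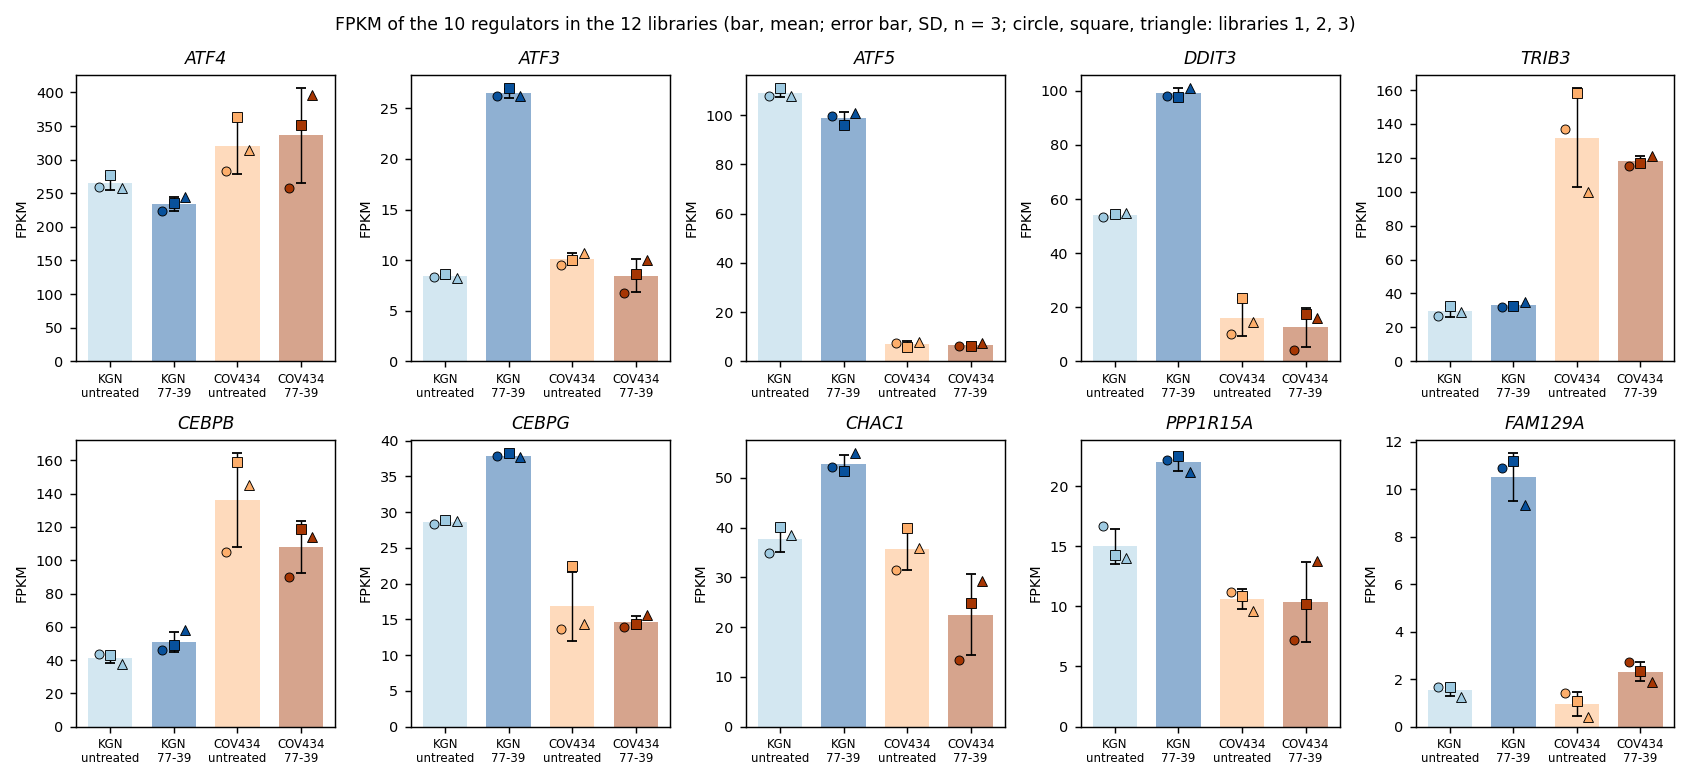
FPKM of each regulator (y axes, linear, starting at 0) in the 4 groups, with the mean as a bar, the SD of 3 libraries as an error bar and each library as a point. ATF3 and FAM129A in treated KGN (26.2 to 27 and 9.32 to 11.2 FPKM) lie far above the other 3 groups, and COV434 libraries spread more widely than KGN libraries for most members.

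ATF3, a bZIP factor that ATF4 and CHOP induce and that can repress or activate its targets, had 8.33, 8.65 and 8.21 FPKM in the KGN control libraries and 26.2, 27 and 26.2 FPKM with 77-39. The treated libraries were thus close together and far above the controls, at a log2 difference of 1.55 ± 0.04 (SE, on the scale of log2(FPKM + 1)). In COV434 the control libraries had 9.53, 10 and 10.7 FPKM and the treated ones 6.79, 8.61 and 9.99 FPKM. The COV434 groups overlapped, and the treated library was the lower in all 3 pairs of the same number. The log2 difference in COV434 was -0.24 ± 0.16 (SE, n = 3), with a limma adjusted p = 0.822. The window with both motifs, printed above, is that of 1 of the 2 annotated starts of this gene.

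FAM129A, a cytoplasmic protein whose RNA is induced by ER stress, had the largest fold among the members in KGN. It was at 1.67, 1.68 and 1.23 FPKM in control and at 10.9, 11.2 and 9.32 FPKM in treated KGN libraries, a log2 difference of 2.18 ± 0.10 (SE). In COV434 it was at 1.41, 1.06 and 0.421 FPKM without and at 2.73, 2.34 and 1.89 FPKM with 77-39. It was the only member whose treated libraries were all above the controls in both lines, and the lowest of these values rests on 59 reads. The COV434 log2 difference was 0.78 ± 0.23 (SE, n = 3). Limma gave it an unadjusted p = 0.00813 and an adjusted p = 0.332, so it did not pass the threshold. At such low levels the pseudocount of 1 narrows the difference, which was 1.30 with a pseudocount of 0.1 and 1.42 with voom on the reads. When all 12 libraries shared 1 estimate of the spread the limma adjusted p was 0.0362, and over all 15 alternatives it lay between 0.0362 and 0.986.

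DDIT3 encodes CHOP, the bZIP factor that links lasting ER stress to cell death. KGN control libraries had 53.3, 54.5 and 54.7 FPKM and treated ones 98.2, 97.8 and 101 FPKM, a log2 difference of 0.86 ± 0.04 (SE). COV434 libraries spread far more, with 10.1, 23.3 and 14.5 FPKM without and 4.29, 17.5 and 15.9 FPKM with 77-39. The lowest value was that of treated library 1, the library with the high mitochondrial share. Its log2 difference in COV434 was -0.45 ± 0.48 (SE, n = 3; 95% interval -1.56 to 0.66), with a limma adjusted p = 0.921, and it became 0.13 without treated library 1. DDIT3 shares 355 bases, 27.2% of its exon bases, with MARS on the other strand, and because the counting is not stated to use strand, reads there cannot be assigned with certainty. MARS was at 70.8, 75 and 75.6 FPKM in control and 66.4, 68.1 and 68.4 FPKM in treated KGN, so it was lower where DDIT3 was higher.

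CHAC1 encodes an enzyme that degrades glutathione and is a marker of ATF4 and CHOP activity. In KGN it was at 34.8, 40.1 and 38.6 FPKM without and 52.1, 51.4 and 54.9 FPKM with 77-39, a log2 difference of 0.47 ± 0.06 (SE). In COV434 it was at 31.4, 40 and 35.8 FPKM without and 13.4, 24.8 and 29.2 FPKM with 77-39. CHAC1 was the only member whose treated libraries all lay above the controls in KGN and all below them in COV434. The COV434 log2 difference was -0.71 ± 0.27 (SE, n = 3). Limma gave it an unadjusted p = 0.0302 and an adjusted p = 0.523. Without treated library 1 it was -0.39, with a limma adjusted p = 0.517.

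The 2 members that restrain the response are PPP1R15A, the phosphatase subunit that reverses eIF2α phosphorylation, and TRIB3, a pseudokinase that binds ATF4 and holds it back. PPP1R15A was at 16.7, 14.3 and 14 FPKM in control and 22.2, 22.5 and 21.2 FPKM in treated KGN, a log2 difference of 0.52 ± 0.07 (SE). In COV434 it was at 11.2, 10.9 and 9.6 FPKM without and 7.17, 10.2 and 13.8 FPKM with 77-39, and the groups overlapped. Its log2 difference in COV434 was -0.06 ± 0.22 (SE, n = 3; limma adjusted p = 0.99), which became 0.16 without treated library 1.

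TRIB3 was the member whose KGN groups overlapped, with 26.4, 32.8 and 29 FPKM in control and 31.9, 32.7 and 35 FPKM in treated libraries. Its log2 difference there was 0.17 ± 0.08 (SE). In COV434 TRIB3 stood several times higher, at 137, 158 and 100 FPKM without and 115, 117 and 121 FPKM with 77-39. The treated COV434 libraries lay inside the range of the controls, at a log2 difference of -0.13 ± 0.20 (SE, n = 3; limma adjusted p = 0.956).

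CEBPB and CEBPG encode bZIP proteins that pair with ATF4 and CHOP. CEBPG was at 28.3, 28.9 and 28.8 FPKM in control and 37.8, 38.2 and 37.7 FPKM in treated KGN, at a log2 difference of 0.39 ± 0.04 (SE). In COV434 CEBPG was at 13.7, 22.5 and 14.3 FPKM without and 13.9, 14.3 and 15.6 FPKM with 77-39, where control library 2 alone stood apart. The COV434 log2 difference of -0.16 ± 0.20 (SE, n = 3; limma adjusted p = 0.938) became 0.05 without that library.

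CEBPB was at 43.7, 42.8 and 37.6 FPKM in control and 46, 48.9 and 57.8 FPKM in treated KGN, a log2 difference of 0.29 ± 0.10 (SE). In COV434 it was at 105, 159 and 145 FPKM without and 90, 119 and 114 FPKM with 77-39, and the treated library was the lower in each of the 3 pairs. The COV434 log2 difference was -0.32 ± 0.21 (SE, n = 3; limma adjusted p = 0.796). CEBPB shares 231 exon bases (11.8%) with CEBPB-AS1 on the other strand, which did not exceed 0.884 FPKM.

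ATF4 and ATF5, whose messages both carry upstream reading frames and are controlled mainly at translation, were the 2 members that were lower in treated KGN. ATF4 was at 260, 277 and 258 FPKM in control and 224, 235 and 245 FPKM in treated KGN, a log2 difference of -0.18 ± 0.06 (SE). In COV434 ATF4 was at 283, 364 and 314 FPKM without and 258, 352 and 396 FPKM with 77-39. The COV434 groups overlapped widely, at 0.05 ± 0.21 on the log2 scale (SE, n = 3; limma adjusted p = 0.99), and the sign turned to -0.03 without control library 1. The processed pseudogene ATF4P3 did not exceed 3.18 FPKM.

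ATF5 was at 108, 111 and 108 FPKM in control and 99.5, 96.1 and 101 FPKM in treated KGN, a log2 difference of -0.14 ± 0.04 (SE). In COV434 it was far lower, at 7.39, 5.97 and 7.93 FPKM without and 6.06, 6.25 and 7.46 FPKM with 77-39. The log2 difference in COV434 was -0.09 ± 0.16 (SE, n = 3; limma adjusted p = 0.972). ATF5 shares 626 exon bases (21.2%) with NUP62 on the other strand, which was at 12.7 to 29.1 FPKM.

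In KGN, then, 7 members had every treated library above every control, 2 every treated library below and 1 overlapping groups. Such separation was found upward for 26.3% and downward for 23.4% of the 12671 genes tested in KGN, and since the members were chosen with this contrast in view nothing is read from their count.

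In COV434, 0 of 10 members passed an adjusted p of 0.05 with limma, where 0.00829% of 12060 genes were called higher and 0.0332% lower. At an unadjusted p of 0.05, FAM129A was higher and CHAC1 lower, 1 member each way, beside 3.52% of all genes higher and 4.49% lower. These were also the members whose groups did not overlap, 1 higher and 1 lower, beside 6.23% and 8.16% of genes. Of the 10 differences, 8 were negative and 2 positive, with a median of -0.15 against -0.02 for all genes tested. The same-numbered libraries of COV434 varied together and were read as pairs. For the libraries numbered 3 this is uncertain, since their correlation (0.166) was close to that of control 3 with treated 2 (0.154). Within pairs, ATF3, CEBPB and CHAC1 were lower in treated libraries in 3 of 3, FAM129A was higher in 3 of 3 and the other 6 were mixed. With the pairs as a block, limma called 87 genes in place of 5 over the whole table and still 0 of the 10 members, with the smallest adjusted p at 0.11, for FAM129A.

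**Figure D2:**
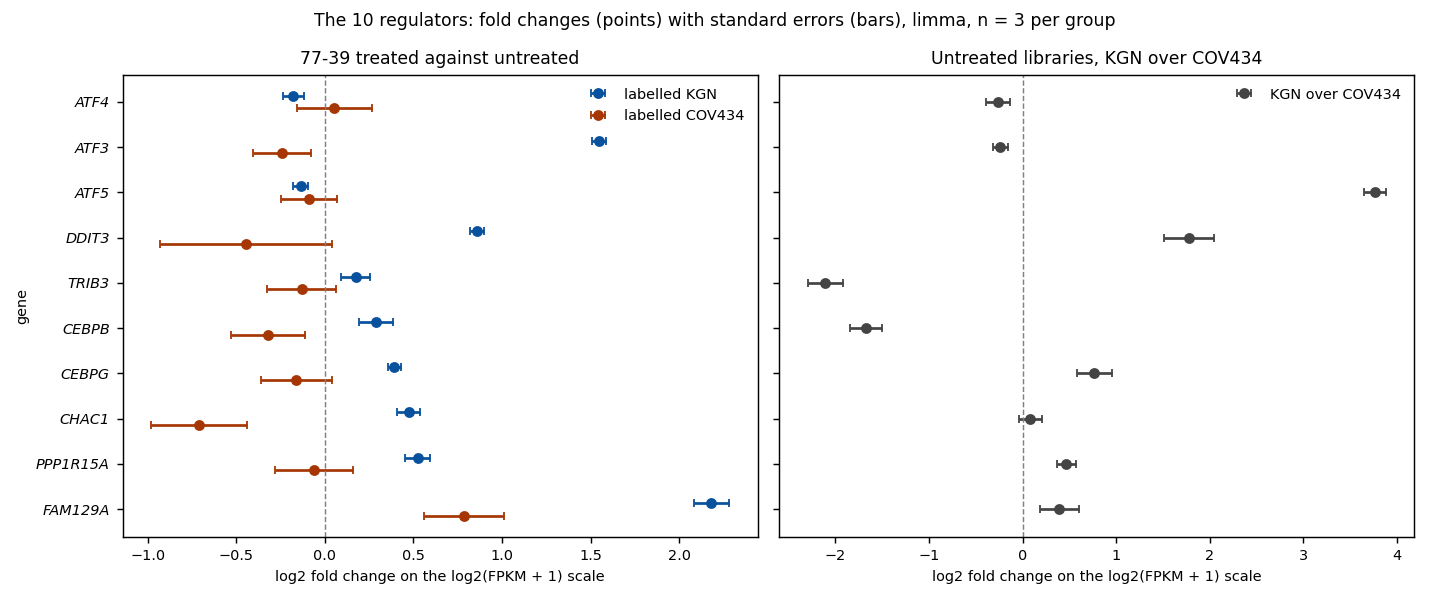
Log2 fold changes on the log2(FPKM + 1) scale (x axes, points with standard errors) of the 10 regulators, for 77-39 against control in each line on the left and for untreated KGN over untreated COV434 on the right, n = 3 libraries per group. In KGN, FAM129A (2.18) and ATF3 (1.55) lie farthest to the right, while in COV434 FAM129A (0.78) and ATF4 (0.05) alone lie right of 0.

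The effects of 77-39 in the lines were set side by side as the difference KGN minus COV434, fitted over all 12 libraries, again without a test for the members. It was 1.79 ± 0.16 (SE) on the log2 scale for ATF3, 1.40 ± 0.25 for FAM129A, 1.31 ± 0.58 for DDIT3 and 1.18 ± 0.31 for CHAC1. CEBPB (0.61), PPP1R15A (0.58), CEBPG (0.55) and TRIB3 (0.31) followed, and ATF5 (-0.05) and ATF4 (-0.23) were at or below 0. Without treated library 1 of COV434, the differences were 1.66 for ATF3, 1.49 for FAM129A, 0.73 for DDIT3 and 0.86 for CHAC1.

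The untreated lines were compared next. Their KGN control libraries also stand in the contrast from which ATF3 and FAM129A were picked, so for these 2 genes the levels are a description with no test. Of the other 8 members, limma called 4 higher and 2 lower in KGN than in COV434 at an adjusted p of 0.05. Genes were called often in this comparison, 32.6% of 13098 higher and 36.4% lower. Over all 10 members, the groups of 4 did not overlap with KGN higher and those of 4, ATF3 among them, with KGN lower, against 35.3% and 38.8% of genes.

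ATF5 showed the widest gap between untreated lines, 108 to 111 FPKM in KGN against 5.97 to 7.93 FPKM in COV434, a log2 difference of 3.77 ± 0.11 (SE, n = 3; limma adjusted p = 3.75e-07). DDIT3 was also higher in KGN, by 1.78 ± 0.27 on the log2 scale (SE, n = 3; limma adjusted p = 0.00103), followed by CEBPG (0.77, limma adjusted p = 0.00897) and PPP1R15A (0.47, limma adjusted p = 0.00634). TRIB3 and CEBPB were lower in KGN, with log2 differences of -2.11 ± 0.18 and -1.68 ± 0.17 (SE, n = 3) and limma adjusted p-values of 6.35e-05 and 0.000147. Thus the RNAs of DDIT3 and of TRIB3, a target of CHOP, lay on opposite sides in the untreated lines. MARS, which overlaps DDIT3 on the other strand, was also higher in untreated KGN. Its means were 73.8 FPKM in KGN and 44.1 FPKM in COV434 (log2 difference 0.76, limma adjusted p = 0.0073). Whether its reads add to the DDIT3 difference was not tested.

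ATF4 (-0.26, limma adjusted p = 0.104) and CHAC1 (0.08, limma adjusted p = 0.547) were not called between the untreated lines. Without COV434 control library 1, ATF4 passed the threshold (-0.35, limma adjusted p = 0.0163), and with quantile normalization CHAC1 did (0.54, limma adjusted p = 0.00338). ATF3 was at 8.21 to 8.65 FPKM in KGN and 9.53 to 10.7 FPKM in COV434, a log2 difference of -0.24 ± 0.08 (SE). Scaling by the reads recovered per library, which moves the median of all genes by 0.17 on the log2 scale in this comparison, left -0.05. FAM129A differed by 0.39 ± 0.20 (SE), with overlapping groups, and by 1.02 with voom.

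The genes around the members were counted from lists written by hand, without the members. These lists were written with earlier results of these data known, so their KGN counts and p-values are not an independent test. The same holds for differences between the lines that contain the KGN contrast. Upstream, the list of eIF2α kinases, eIF2 and eIF2B subunits, eIF2α phosphatase genes and the kinase regulators DNAJC3, OMA1 and DELE1 gave 3 of 19 higher and 4 lower in treated KGN at a limma adjusted p of 0.05, beside 17.6% of all genes higher and 16.4% lower, with a median log2 difference of 0.00 against 0.01 for all genes. With a library left out, 1 to 4 were higher and 2 to 4 lower. The count of 3 fell to 1 without KGN control library 2 or 3 or treated library 1 or 2, and that of 4 to 2 without control library 3 or treated library 2. EIF2AK3, the gene of the ER kinase PERK, had 2.48 ± 0.11 FPKM in control and 4.14 ± 0.20 FPKM in treated libraries (SD, n = 3) and rose by 0.56 on the log2 scale (limma adjusted p = 0.000965). EIF2AK2, the kinase PKR, rose by 0.31 (limma adjusted p = 0.0373), a call that held in 7 of 15 alternatives, and EIF2B5, a subunit of the exchange factor of eIF2, fell by 0.33 on the log2 scale (limma adjusted p = 0.00421).

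Downstream, the 4 lists of genes that ATF4 or CHOP induce held 57 tested genes in KGN, of which 35 rose and 4 fell. Of all 12671 genes tested in KGN, 17.6% were called higher and 16.4% lower. The median log2 difference of the 57 was 0.30, against 0.01 for all genes. Of 9 amino acid transporters tested, 8 rose and 0 fell. SLC3A2, the heavy chain shared by several transporters, rose from 46.7 ± 2.0 to 102 ± 3.1 FPKM (SD, n = 3; log2 difference 1.11, limma adjusted p = 9.13e-05), and SLC7A11, the cystine transporter that pairs with it, from 9.73 ± 0.55 to 18.8 ± 0.9 FPKM (0.89, limma adjusted p = 0.00022). SLC43A1 rose by 0.64 on the log2 scale (limma adjusted p = 0.00158), from 1.03 to 2.16 FPKM, and by 1.06 with voom.

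Of 14 amino acid synthesis and one-carbon genes, 6 rose and 2 fell in KGN, beside 17.6% and 16.4% of all genes. ALDH1L2, a mitochondrial folate enzyme, rose by 0.82 (limma adjusted p = 0.000272), GOT1 by 0.44 and PSAT1 by 0.43 on the log2 scale (limma adjusted p = 0.000825 and 0.00209). Of 14 tRNA charging genes, 7 rose and 1 fell. WARS rose by 0.95 and GARS by 0.63 on the log2 scale (limma adjusted p = 9.13e-05 and 0.000427), while AARS fell from 130 ± 6.1 to 72.9 ± 3.9 FPKM (SD, n = 3; -0.82, limma adjusted p = 0.000333).

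Of 20 other genes induced through ATF4 or CHOP, 14 rose and 1 fell, beside 17.6% and 16.4% of all genes. HMOX1, the heme oxygenase that NRF2 also drives, rose from 16.1 ± 0.8 to 104 ± 2.7 FPKM (SD, n = 3; log2 difference 2.62). It was known beforehand as a leading gene of these data, so its change is a description without a test. It is nevertheless counted among the 14 here and among the 35 above. LAMP3, a lysosomal membrane protein, rose from 0.446 ± 0.095 to 1.75 ± 0.16 FPKM (SD, n = 3), and passed the filter through its treated libraries. Its log2 difference was 0.93 (limma adjusted p = 0.00131) with the pseudocount of 1, 1.77 with a pseudocount of 0.1 and 1.97 with voom. DDIT4, an inhibitor of mTORC1 signaling, fell by 0.76 on the log2 scale (limma adjusted p = 0.00692), the opposite direction to most of its list.

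The list around ATF6 and XBP1, the other arms of the unfolded protein response, gave 13 of 24 higher and 0 lower in KGN. Its median was 0.19. Beside ER chaperone genes it holds the sensors and regulators ATF6, ATF6B, XBP1, ERN1, MBTPS1 and MBTPS2, which are not chaperones. Of all genes tested, 17.6% were higher and 16.4% lower, and these shares also stand beside the lists that follow. DNAJB9 rose by 0.83, HYOU1 by 0.71 and ATF6 by 0.69 on the log2 scale (limma adjusted p = 0.000139, 0.000176 and 0.000209). Among bZIP partners 7 of 24 rose and 3 fell, with JUN up by 0.66 (limma adjusted p = 0.0015) and TEF down (-0.59, limma adjusted p = 0.000621), both on the log2 scale. Of 9 paralogs of the members, 1 rose and 2 fell: JDP2, close kin of ATF3, rose by 0.65 (limma adjusted p = 0.00432), and CHAC2, the kin of CHAC1, fell by 0.35 (limma adjusted p = 0.0101), in the opposite direction to the values of CHAC1. FAM129B fell by 0.27 (limma adjusted p = 0.0312), a call lost in 7 of 15 alternatives.

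In COV434, limma called 0 genes of every one of these lists at an adjusted p of 0.05. Of the 63 tested genes induced by ATF4 or CHOP, 9 were higher and 5 lower at an unadjusted limma p of 0.05. Of all genes tested, 3.52% were higher and 4.49% lower at that threshold. The median log2 difference of the 63 was 0.04, against -0.02 for all genes. With the pairs as a block limma called 3 of the 63, and in 1 fit of all 12 libraries 7. Both of these fits also called more genes over the whole table, 480 in the fit of 12 libraries.

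**Figure D3:**
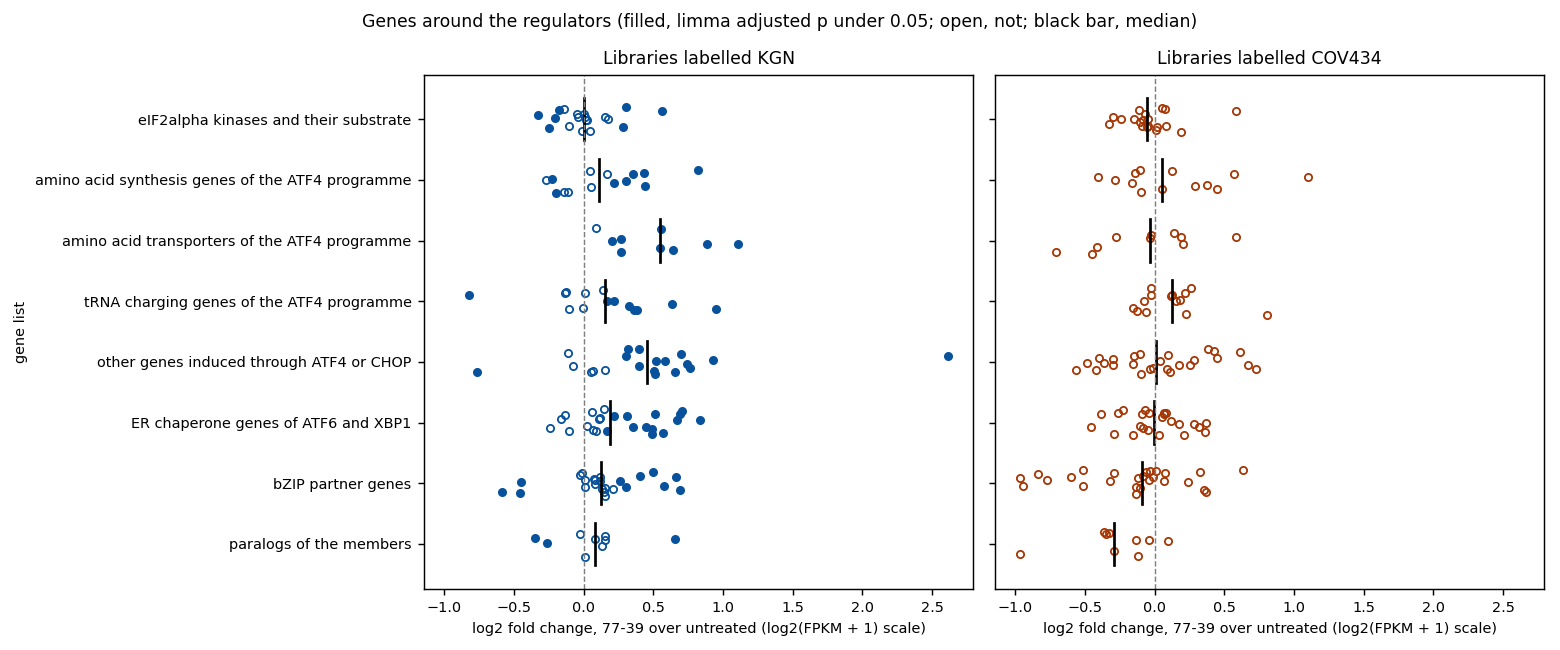
Log2 fold change of every tested gene (x axes, points) of 8 lists of genes around the regulators (y axis), for 77-39 over control in KGN on the left and in COV434 on the right. Filled points had a limma adjusted p under 0.05 and black bars are medians, which for amino acid transporters lie at 0.55 in KGN and -0.03 in COV434, where every point is open.

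The difference between the lines was tested for these genes, which are not members. Of 64 genes induced by ATF4 or CHOP, 8 had a higher log2 difference in KGN than in COV434 and 3 a lower one at a limma adjusted p of 0.05, beside 1.85% and 1.74% of 13127 genes. SLC3A2 differed by 1.14 on the log2 scale (limma adjusted p = 0.00506), being at 273 ± 10 FPKM in control and 269 ± 44 FPKM in treated COV434 (SD, n = 3). HMOX1 differed by 2.01, given without a test because it was known as a leading gene of these data, though it is counted among the 8. SESN2 differed by 0.91 (limma adjusted p = 0.0212, lost in 7 of 20 alternatives) and MAP1LC3B by 0.85 (limma adjusted p = 0.0102). The 8 include ALDH1L2, which passed the filter through KGN alone and was at 0.0423 FPKM (18 reads) in control and 0.0926 FPKM (39 reads) in treated COV434. Its call rests on the pseudocount, since its difference was -0.47 with voom. VLDLR, also among the 8, entered through COV434 alone, with means of 0.745 and 1.1 FPKM in control and treated KGN.

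In the other direction, PHGDH, the entry enzyme of serine synthesis, differed by -1.22 (limma adjusted p = 0.0041), with 36.6 ± 5.7 FPKM in control and 79.4 ± 8.3 FPKM in treated COV434 against 39.9 ± 1.0 and 36.8 ± 0.8 FPKM in KGN (SD, n = 3). AARS differed by -1.09 (limma adjusted p = 0.0251), a call lost in 9 of 20 alternatives. EIF2AK3 differed by 0.86 (limma adjusted p = 0.0177, lost in 5 of 20) and ERN1, the ER sensor IRE1, by 0.78 (limma adjusted p = 0.0358, lost in 12 of 20), and the bZIP genes NFIL3, FOS and MAFF by 1.44, 1.03 and 0.89 (limma adjusted p = 0.000492, 0.0153 and 0.00506), of which the call of FOS was lost in 3 of 20. In COV434, FOS had means of 8.59 ± 1.75 FPKM in control and 3.88 ± 0.47 FPKM in treated libraries, and NFIL3 26.8 ± 0.56 and 13.5 ± 1.2 FPKM (SD, n = 3). In KGN, FOS was at means of 0.623 and 0.696 FPKM, under the pseudocount of 1, so it entered the test through COV434 alone.

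Untreated, 20 of 64 genes of the ATF4 and CHOP lists were higher in KGN and 26 lower, in a comparison that called 32.6% and 36.4% of all genes. Amino acid transporters gave 0 of 10 higher and 7 lower in KGN, among them SLC7A5 and SLC3A2 with log2 differences of -3.39 and -2.52 and limma adjusted p-values of 5.07e-06 and 8.96e-07. SLC38A1 had 0 reads in the 3 KGN control libraries and 48 to 61.5 FPKM in those of COV434, so it entered the test through COV434 alone. So did TXNIP (means of 0 and 67.6 FPKM), STC2, NUPR1, GADD45B, LAMP3, VLDLR and BCL2L11, all counted among the 26 lower. ALDH1L2, counted among the 20 higher, entered through KGN alone. The eIF2α kinases were split, EIF2AK4, the amino acid sensor GCN2, being higher in KGN (log2 difference 2.64, limma adjusted p = 3.27e-07) and EIF2AK1, the heme-regulated kinase, lower (-1.61, limma adjusted p = 7.18e-06). PPP1R15B, the constitutive counterpart of PPP1R15A, was lower in KGN (-1.96, limma adjusted p = 4.9e-06), opposite to PPP1R15A.

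The genes whose pattern over the 12 libraries was nearest to that of ATF3 and DDIT3 were found among 10235 genes by Euclidean distance between centred log2(FPKM + 1) values. For ATF3, which lay 2.26 from a flat profile, these were STK40 (1.02), AP001893.1 (1.14) and NMNAT2 (1.15). STK40 shared the shape, with group means of 6.04 and 12.3 FPKM in control and treated KGN against 5.47 and 5.84 FPKM in COV434. For DDIT3, at 4.67 from a flat profile, they were OTUD6B-AS1 (1.35), MIR222HG (1.48) and SNHG8 (1.63). These 3 noncoding RNAs were higher in KGN than in COV434, but of them OTUD6B-AS1 alone was higher with 77-39 in KGN, at group means of 16.5 and 25.3 FPKM. The points share 12 libraries, so the distances describe them and are not tests.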

How the data were processed

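RNA of 12 libraries, 3 per group, was sequenced. The authors deposited FPKM per gene, and the submitters' processing notes name HISAT2 2.0.5 and the mouse builds mm10 and mm8. The genes are human, and the coordinates of 58735 of 58735 match release 29 of GENCODE on GRCh38. The label text on extraction speaks of retinas. How reads were counted, and whether by strand, is not given in the sources used here. Reads were recovered from FPKM and gene length (100% of values whole within 0.05), and 3 reads on a gene of 1 kb equal 0.152 to 0.2 FPKM, which covers counting error only.

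Groups came from the sample titles. Each comparison was fitted in limma 3.58.1 (R 4.3.3, lmFit and trended eBayes). The fits used log2(FPKM + 1) of genes whose mean reached 1 FPKM, and the difference between lines as an interaction over 12 libraries. P-values were two-sided, adjusted by Benjamini-Hochberg across the genes of each fit, and judged at 0.05. The fits were also run on simulated data in which genes and libraries varied independently, whereas same-numbered COV434 libraries deviated together. Those runs therefore do not measure how calls behave in COV434. Alternatives tried were another pseudocount (0.1), another minimum (0.1 FPKM) or none, 3 other scalings, voom, the library number as a block, 1 fit of all 12 libraries and each library left out. No 2 libraries were identical (0 pairs). Between replicates, the chi-square per gene was 2.36 to 8.36 in KGN and 15.6 to 89.9 in COV434.

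Same-numbered treated and control libraries deviated together in COV434, with correlations of 0.4, 0.474 and 0.166 across genes. Each was over 0.1, so their numbers were taken as pairs. Control library 3 with treated library 2 also exceeded 0.1, at 0.154, so the pairing of the libraries numbered 3 is uncertain. In KGN the correlations were -0.02 for each pair, and the numbers were not. The labels state no shared culture or day.

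All 10 members are named, and from each list up to 3 genes with the largest absolute log2 change among those called. The members and lists were chosen with earlier results of these data known. Promoter windows came from RefSeq (GRCh38.p14). Python 3.11.15 was used for tables and figures.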

Additional observations from a re-analysis of the deposited data

Results flagged for a closer look

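CHAC1 moved apart between the lines: every treated library lay above the controls in KGN and below them in COV434, a log2 difference of 1.18 between the effects. This difference was not tested, because the members were chosen with the KGN contrast known. It was 0.86 without COV434 treated library 1, and in COV434 alone CHAC1 was not called (limma adjusted p = 0.523). Treated libraries lay all above the controls for 26.3% of genes in KGN and all below them for 8.16% in COV434.

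For 11 other genes, from the up to 3 named per list, the effect of 77-39 differed between the lines at a limma interaction adjusted p of 0.05. HMOX1 is counted among these 11, though it was known beforehand as a leading gene. Its difference is therefore a description without a test. Not shown are KLHL24, VLDLR, MAFK and LAMP3, also called higher, and CDKN1A and TEF, also called lower. Of all 13127 genes, 1.85% were called higher and 1.74% lower. The lists were written with earlier results known, HMOX1 as a leading gene among them, so these calls are not an independent test. On the log2 scale, KGN minus COV434, the difference was 2.01 for HMOX1, 1.44 for NFIL3, 1.14 for SLC3A2, 1.03 for FOS, 0.91 for SESN2, 0.89 for MAFF, 0.86 for EIF2AK3, 0.85 for MAP1LC3B and 0.78 for ERN1. It was -1.22 for PHGDH and -1.09 for AARS. FOS, at 0.623 and 0.696 FPKM in control and treated KGN, entered the test through COV434 alone, as did VLDLR. Of 20 alternatives, the call was lost in 12 for ERN1 (adjusted p up to 0.109 in limma), 9 for AARS, 7 for SESN2, 5 for EIF2AK3 and 3 for FOS. It was lost in 0 for the other 6, which include HMOX1. ALDH1L2 also passed, at 0.75, but it did not exceed 0.107 FPKM in COV434 and its difference was -0.47 with voom, so its value depends on the pseudocount.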

How the results depend on the processing

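The count of genes called in COV434 was 5, and became 3 with a pseudocount of 0.1, 3 with a filter at 0.1 FPKM, 1 with no filter, 25 with voom, 87 with the replicate block, 480 in 1 fit of all 12 libraries and 1 to 7 with a library left out. Members called there went from 0 to 1 in the fit of 12 libraries, and genes induced by ATF4 or CHOP from 0 to 3 with the replicate block and 7 in the fit of 12 libraries. In KGN, 4307 genes were called, 1015 in the fit of 12 libraries and 2751 to 4128 with a library left out (2751 without treated library 2). Of the genes induced by ATF4 or CHOP, the 35 that rose became 17 in the fit of 12 libraries, and the 4 that fell became 8 with median-ratio scaling and 2 in the fit of 12 libraries. For the difference between lines, 472 genes became 261 with voom and 126 to 975 with a library left out, with 975 without COV434 treated library 1. There the 8 higher genes of the ATF4 and CHOP lists became 4 to 12 and the 3 lower ones 1 to 5.

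The sign turned for ATF4 with quantile normalization, to -0.032 in COV434 and 0.064 between untreated lines, and for ALDH1L2 with voom in the difference between lines (-0.47). With a library left out, the log2 difference in COV434 ranged from -0.078 (treated library 3) to 0.23 for ATF4, -0.77 to 0.13 (treated library 1) for DDIT3, -0.27 to 0.16 (treated library 1) for PPP1R15A, -0.31 to 0.011 (control library 2) for TRIB3 and -0.28 to 0.053 (control library 2) for CEBPG. It ranged from -0.0015 (COV434 control library 1) to 0.17 for CHAC1 between untreated lines, and from -0.12 to 0.059 (COV434 control library 2) for ATF5 in the difference between lines. The cause was not tested. The block changed no call of a tested member, and with the block EIF2AK3 in the difference had a limma adjusted p = 0.0513. Depth limits FAM129A most, at 59 reads in 1 COV434 control library.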
